A study of Homo sapiens with 6 samples.

Results

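The genes described here mark the airway and alveolar lineage. They are the transcription factor genes NKX2-1, FOXA1 and FOXA2, the surfactant protein genes SFTPB and SFTPC, the mucin genes MUC5AC and MUC5B, and CAV1, AQP5 and SLC34A2, genes of alveolar cell membranes. They were chosen by symbol. All 10 had at least 1 transcript cluster annotated to that symbol alone, out of 22411 genes with such a cluster, and the brightest cluster by the mean of the 6 arrays stood for each gene. The cells were A549, an established human lung adenocarcinoma line, profiled on Affymetrix arrays that cover whole transcripts. In 3 of the 6 arrays the cells had received mixed siRNAs that target CONCR, a long noncoding RNA studied for its part in sister chromatid cohesion, and in the other 3 a control siRNA. Both groups were unmodified A549 cells in RPMI 1640 with 10% fetal calf serum, transfected with 40 nM siRNA and again 24 h later with Lipofectamine 2000. The study describes the knockdowns as independent without naming separate cultures, so the p-values reflect spread among these arrays, and that spread may be technical.

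NKX2-1 is the homeodomain factor that specifies lung and thyroid epithelium, and FOXA1 and FOXA2 are forkhead factors that open chromatin at endoderm genes. In alveolar type II cells NKX2-1 and FOXA factors act on surfactant promoters, and lung adenocarcinomas that lose NKX2-1 often take on features of gut and liver epithelium while keeping FOXA factors. The gel-forming mucins MUC5AC and MUC5B are made by goblet and submucosal gland cells, CAV1 and AQP5 are abundant in alveolar type I cells, and SLC34A2, a phosphate transporter, is a type II cell marker.

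RefSeq promoter windows (GRCh38.p14, 250 bases before to 50 after an annotated start) were taken by symbol for 6 of the 10 genes, 11 windows in all. No window was found for FOXA2, MUC5AC and MUC5B. SFTPC was left out of the search, so the window counts below do not cover it. Shown are a window each of FOXA1 and NKX2-1, as lineage factors, and of SFTPB, as a surfactant gene known to be a target of both kinds of factor. Capitals mark forkhead letters on either strand, which were TGTTT followed by A or G and then by C or T, and the NKX2-1 letters CACTCAAG, also on either strand, and no marked stretches overlap. The windows lie at chr14:37595200-37595499 for FOXA1, chr14:36519507-36519806 for NKX2-1 and chr2:85668150-85668449 for SFTPB, and each is read from the minus strand.
FOXA1: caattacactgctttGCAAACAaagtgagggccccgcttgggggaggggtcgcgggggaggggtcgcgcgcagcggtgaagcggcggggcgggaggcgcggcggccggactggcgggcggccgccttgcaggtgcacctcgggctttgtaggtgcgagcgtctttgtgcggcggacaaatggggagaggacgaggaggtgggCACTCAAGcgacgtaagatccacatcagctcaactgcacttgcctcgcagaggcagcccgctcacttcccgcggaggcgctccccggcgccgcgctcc
NKX2-1: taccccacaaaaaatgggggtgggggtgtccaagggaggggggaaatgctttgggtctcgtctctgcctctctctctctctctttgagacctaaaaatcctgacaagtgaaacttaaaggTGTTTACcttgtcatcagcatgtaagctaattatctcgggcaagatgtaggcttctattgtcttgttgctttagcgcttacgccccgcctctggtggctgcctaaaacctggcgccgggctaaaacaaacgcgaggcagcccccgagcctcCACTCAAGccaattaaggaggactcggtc
SFTPB: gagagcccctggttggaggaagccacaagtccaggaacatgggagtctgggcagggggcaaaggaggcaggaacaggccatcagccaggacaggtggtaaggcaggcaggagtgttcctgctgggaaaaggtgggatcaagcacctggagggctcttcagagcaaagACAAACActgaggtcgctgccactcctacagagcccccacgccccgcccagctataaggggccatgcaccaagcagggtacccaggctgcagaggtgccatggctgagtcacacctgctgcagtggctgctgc
A forkhead match lay in 5 of the 11 windows, from 4 genes, against 15.1% of all 35116 RefSeq windows. The letters CACTCAAG lay in the FOXA1 window and in this NKX2-1 window, against 0.73% of all windows. They lay in neither SFTPB window nor in the other NKX2-1 window, and the SFTPB window not shown had no forkhead match. These letters were picked after the windows had been looked at, and a match describes the sequence and does not show binding.

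The log2 differences of the 10 genes, CONCR siRNA minus control siRNA, ran from -0.29 for MUC5AC to 0.17 for FOXA1. None of the 9 tested genes passed limma's threshold (adjusted p under 0.05), while 1.88% of the 32540 tested clusters did, 0.384% higher and 1.5% lower. A cluster was tested where its log2 signal exceeded 4 on at least 3 of the 6 arrays. Only SLC34A2, of the 10, lay below that level. By unadjusted limma p under 0.05 there were 3 genes, FOXA1, CAV1 and MUC5AC, against 12.7% of tested clusters. For the same 3 genes no array of one group fell within the range of the other, FOXA1 and CAV1 higher and MUC5AC lower with CONCR siRNA. Such a gap was found for 19.1% of tested clusters, 9% higher and 10.1% lower. The genes were chosen with earlier results of these data known, so setting them against these shares is not an independent comparison. The median log2 difference (CONCR siRNA minus control siRNA) was 0.02 over the 9 genes and 0.01 over all tested clusters, and the median absolute difference was 0.07 over both. The 95% intervals reached 0.12 to 0.21 log2 units to either side of each difference. Precision here is limited by the number of arrays.

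**Figure D1:**
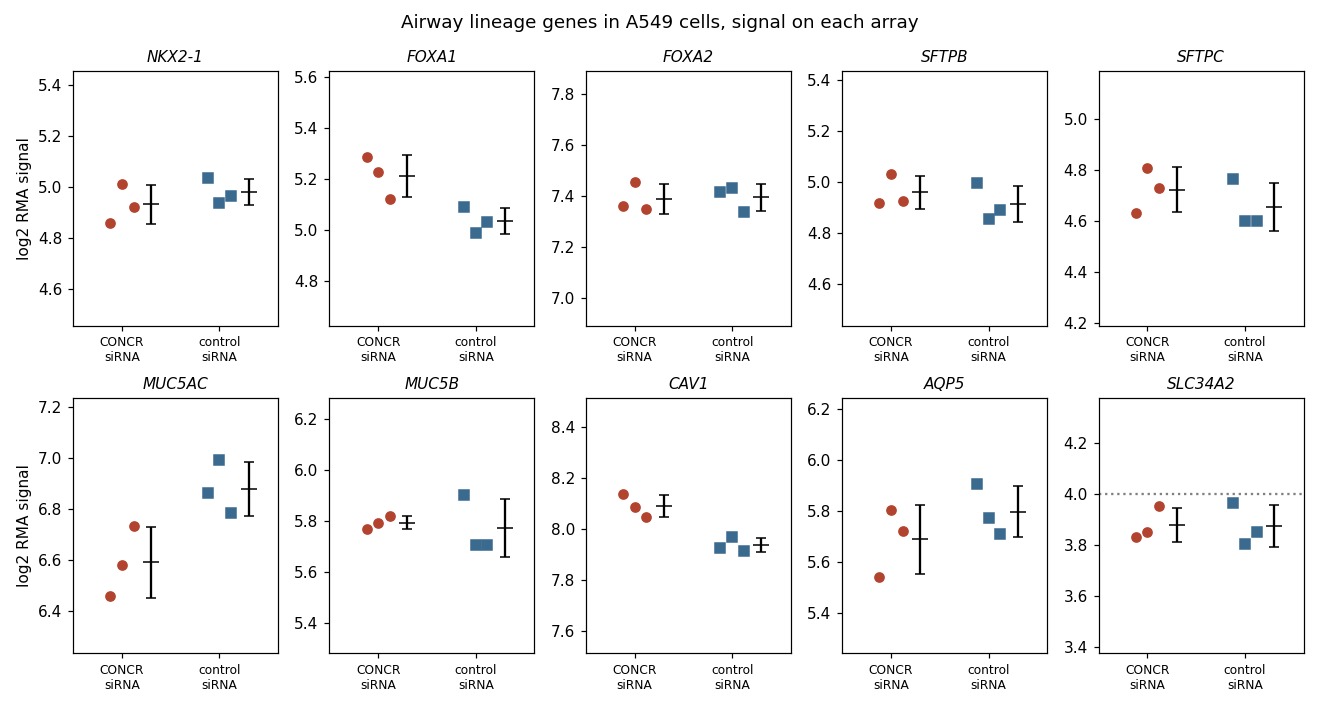
Log2 RMA signal of the 10 genes on each array, with CONCR siRNA (circles) left of control siRNA (squares) and the group mean ± SD beside them (n = 3); each panel spans 1 log2 unit and the dotted line is the level of 4. FOXA1 and CAV1 arrays sit higher with CONCR siRNA and MUC5AC arrays lower, while the groups overlap for the other 7 genes.

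The targeted RNA gives the setting of these differences. The CONCR cluster (DDX11-AS1) had log2 signals of 4.23, 4.49 and 4.64 on the CONCR siRNA arrays and 4.71, 4.71 and 4.64 on the control arrays. Its difference of -0.23 (SE 0.10) did not pass (limma adjusted p = 0.42), so the array does not itself check the knockdown. Across tested clusters, arrays of the same group correlated at 0.989 to 0.993 and arrays of different groups at 0.987 to 0.991.

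The lineage factors came first. NKX2-1 had log2 signals of 4.86, 5.01 and 4.92 with CONCR siRNA, against 5.04, 4.94 and 4.97 with the control siRNA. The groups overlapped, and the difference was -0.05 (SE 0.06, 95% interval -0.19 to 0.10, limma adjusted p = 0.84). NKX2-1-AS1, the antisense neighbour of NKX2-1, had 3.99, 4.05 and 3.95 with CONCR siRNA, against 4.30, 4.06 and 3.85 with the control siRNA, at the level of 4 itself.

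FOXA1 had signals of 5.29, 5.23 and 5.12 with CONCR siRNA, against 5.09, 4.99 and 5.03 with the control siRNA. Every CONCR siRNA array lay above every control array, yet the gap between the closest arrays was small beside the spread within a group. The difference was 0.17 (SE 0.06, 95% interval 0.03 to 0.32, 1.13-fold), with a limma adjusted p of 0.30 and an exact two-sided permutation p of 0.1, the smallest that 3 arrays against 3 can give.

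FOXA2 had signals of 7.36, 7.46 and 7.35 with CONCR siRNA, against 7.42, 7.43 and 7.34 with the control siRNA. The arrays were interleaved, and the difference was -0.01 (SE 0.06, 95% interval -0.14 to 0.13, limma adjusted p = 0.98). The interval ends at folds of 1.10 lower and 1.09 higher. The gap between the paralogues, FOXA1 minus FOXA2 on the same array, was -2.18 ± 0.09 with CONCR siRNA and -2.36 ± 0.08 with the control siRNA (SD, n = 3 each), a shift of 0.18. It had an exact two-sided permutation p of 0.1, the smallest possible here, and 0.15 after adjustment over the 3 gene pairs compared. With 3 arrays a group this test cannot pass the threshold, so it does not settle whether the paralogues differ. FOXA3, the remaining family member, was at 4.71 ± 0.02 with CONCR siRNA and 4.68 ± 0.10 with the control siRNA (SD, n = 3 each; limma adjusted p = 0.94).

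The surfactant genes gave signals above the level of 4 on every array. That does not by itself show expression, because 4 of 13 measured markers of leukocytes, fibroblasts and endothelium were above the level too. SFTPB, whose product spreads the surfactant film, had 4.92, 5.03 and 4.92 with CONCR siRNA, against 4.99, 4.86 and 4.89 with the control siRNA. The groups overlapped, at a difference of 0.05 (SE 0.06, limma adjusted p = 0.85). SFTPC, the hydrophobic surfactant protein that most strictly marks type II cells, had 4.63, 4.81 and 4.73 with CONCR siRNA, against 4.76, 4.60 and 4.60 with the control siRNA. These overlapped too, with a difference of 0.07 (SE 0.07, limma adjusted p = 0.80). SFTPB minus SFTPC on the same array was 0.23 ± 0.05 with CONCR siRNA and 0.26 ± 0.03 with the control siRNA (SD, n = 3 each; exact two-sided permutation p = 0.4, also 0.4 adjusted over 3 pairs).

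SLC34A2 had signals of 3.83, 3.85 and 3.95 with CONCR siRNA, against 3.97, 3.81 and 3.85 with the control siRNA. No array reached 4, so the gene was left out of the filtered fit. In the limma fit without the filter its difference was 0.00 (0.0045; SE 0.07, 95% interval -0.16 to 0.17, adjusted p = 0.99). Among further type II and surfactant genes, 11 of 14 with a cluster were tested and none passed, against the 1.88% above, with a median difference of 0.002. ETV5, an FGF-responsive factor of type II cells, came nearest with signals of 5.84, 5.77 and 5.84 with CONCR siRNA, against 6.10, 6.17 and 6.04 with the control siRNA. Its groups stood apart at -0.29 (SE 0.06, limma adjusted p = 0.066). LPCAT1, an enzyme of surfactant lipid synthesis, was at -0.14 and ABCA3, the lamellar body lipid transporter, at 0.10, with limma adjusted p of 0.32 and 0.55. SFTPA1 was at 0.02, SFTPD at 0.00 (0.0023) and the other tested members between -0.07 and 0.05.

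Of the pair MUC5AC and MUC5B, MUC5AC had groups that did not overlap. MUC5AC, the inducible mucin of goblet cells, had signals of 6.46, 6.58 and 6.73 with CONCR siRNA, against 6.86, 6.99 and 6.78 with the control siRNA. The CONCR siRNA arrays were all lower, with the highest of them 0.05 under the lowest control array. The difference was -0.29 (SE 0.09, 95% interval -0.50 to -0.08, 1.22-fold lower), with a limma adjusted p of 0.22.

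A second MUC5AC cluster had 6.31, 6.34 and 6.57 with CONCR siRNA, against 6.70, 6.89 and 6.69 with the control siRNA. It too had no overlap, at -0.36 (SE 0.09, 95% interval -0.57 to -0.14, limma adjusted p = 0.14). On single arrays the brighter cluster exceeded the second by 0.09 to 0.24. Both clusters read the same 6 RNA samples, and they may share probes, so they are not independent measurements.

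MUC5B, the mucin of submucosal glands and of basal airway clearance, had 5.77, 5.79 and 5.82 with CONCR siRNA, against 5.90, 5.71 and 5.71 with the control siRNA. The CONCR siRNA arrays lay inside the control range, with a difference of 0.02 (SE 0.07, 95% interval -0.14 to 0.19, limma adjusted p = 0.94). MUC5AC minus MUC5B on the same array was 0.79 ± 0.11 with CONCR siRNA and 1.11 ± 0.17 with the control siRNA (SD, n = 3 each). The shift of -0.31 had an exact two-sided permutation p of 0.1, again the smallest possible, and 0.15 adjusted over 3 pairs.

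MUC5AC and MUC5B sit in a row of gel-forming mucin genes on chromosome 11, in the RefSeq order MUC6, MUC2, MUC5AC, MUC5B. MUC2, the intestinal mucin, averaged 5.21 ± 0.06 with CONCR siRNA and 5.21 ± 0.09 with the control siRNA, and MUC6, the gastric gland mucin, 5.39 ± 0.06 with CONCR siRNA and 5.39 ± 0.10 with the control siRNA (SD, n = 3 each). The limma adjusted p was 0.99 for both. Of 15 genes on a list of further mucins and related genes, these 2 included, 9 were tested, none passed and all 9 had a positive sign. Several were near 0, with MUC2 at 0.004 (SE 0.07), MUC6 at 0.005 (SE 0.07) and MUC4 at 0.02 (SE 0.06). All were read from the same 6 arrays, so their signs are not independent. Over all lists described here, 55 of 79 tested genes had a positive sign, and the median over all tested clusters was itself positive, at 0.01. MUC3A, a membrane mucin of the gut, had 4.98, 5.10 and 4.92 with CONCR siRNA, against 4.82, 4.86 and 4.75 with the control siRNA. Its groups did not overlap, at 0.19 (SE 0.07, limma adjusted p = 0.28), and MUC13 was at 0.18 (SE 0.09, limma adjusted p = 0.50). The median of the 9 was 0.04.

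**Figure D2:**
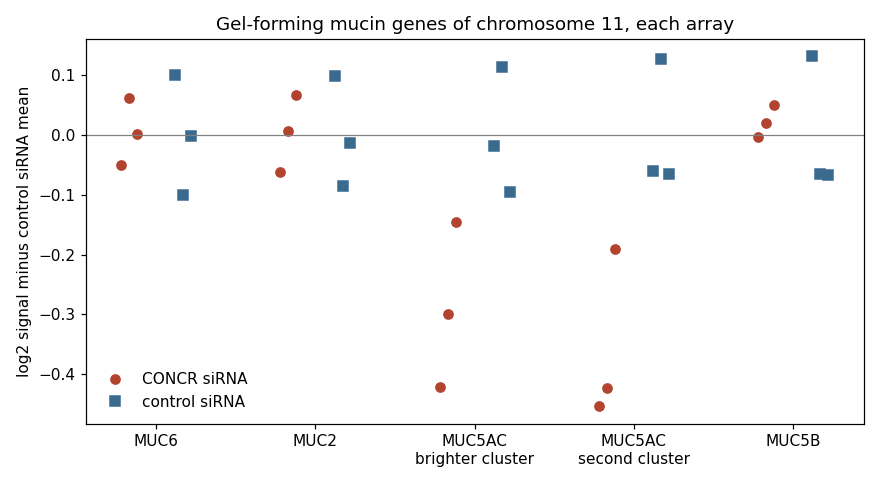
Log2 signal of the gel-forming mucin genes on each array minus the mean of the control siRNA arrays, in chromosomal order, with CONCR siRNA (circles) left of control siRNA (squares). Both MUC5AC clusters lie below 0 on the 3 CONCR siRNA arrays, while the groups overlap for MUC6, MUC2 and MUC5B.

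The membrane genes of type I cells followed. CAV1, the coat protein of caveolae, had signals of 8.14, 8.09 and 8.05 with CONCR siRNA, against 7.93, 7.97 and 7.92 with the control siRNA. All CONCR siRNA arrays were higher, by 0.15 on average (SE 0.05, 95% interval 0.03 to 0.28, 1.11-fold), with a limma adjusted p of 0.26. AQP5, the water channel of type I and gland cells, had 5.54, 5.80 and 5.72 with CONCR siRNA, against 5.91, 5.77 and 5.71 with the control siRNA. The groups overlapped, at -0.11 (SE 0.09, 95% interval -0.31 to 0.10, limma adjusted p = 0.71).

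Of 14 further type I genes with a cluster, 9 were tested and 1 passed, against 1.88% of all tested clusters. The list was chosen with earlier results of these data known, so this count says nothing about type I genes as a group. EMP2, a tetraspan membrane protein abundant in type I cells, fell by 0.50 (SE 0.06, 95% interval -0.64 to -0.36, 1.41-fold lower, limma adjusted p = 0.012). Its signals were 7.24, 7.18 and 7.29 with CONCR siRNA, against 7.76, 7.79 and 7.67 with the control siRNA, with no overlap. The call was lost without any 1 of the CONCR siRNA arrays or control siRNA replicate 2, with an adjusted p of at most 0.071.

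CAV1's partners were on the same list. CAVIN1, which builds the caveolar coat with CAV1, had 7.34, 7.40 and 7.33 with CONCR siRNA, against 7.09, 7.17 and 7.004 with the control siRNA. Its groups stood apart at 0.27 (SE 0.06) without passing (limma adjusted p = 0.098). CAV2 was at 0.11 (SE 0.05) and CAVIN3 at -0.07 (SE 0.07), with limma adjusted p of 0.46 and 0.77, and CAVIN2 lay below the level of 4. AQP3, another water channel, was at 0.15 (limma adjusted p = 0.42). The list median was 0.02, and AQP4, HOPX, CLIC5 and AKAP5 were below the level too.

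**Figure D3:**
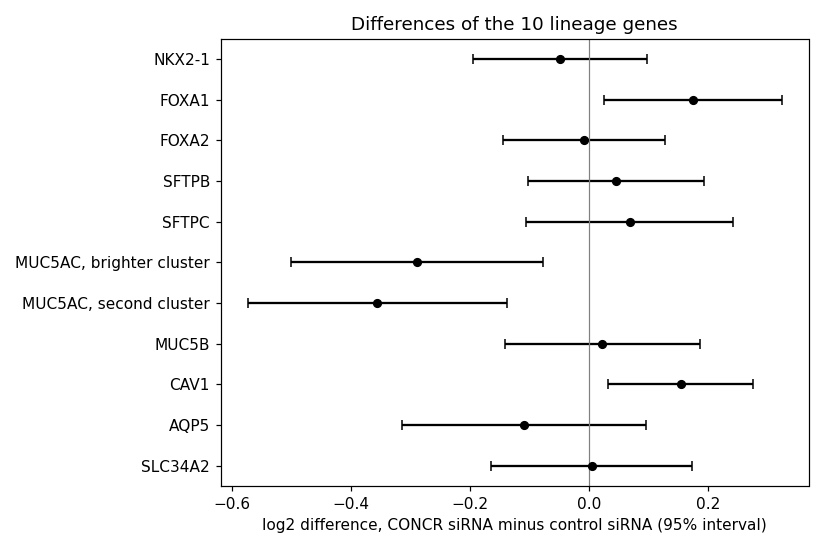
Log2 difference (CONCR siRNA minus control siRNA) of each gene with its 95% interval from limma, with both MUC5AC clusters shown and SLC34A2 from the fit without the signal filter. The intervals of FOXA1 and CAV1 lie above 0 and those of MUC5AC below it before adjustment, and the intervals of the other 7 genes include 0.

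One array in each group tended to the edge of these values. CONCR siRNA replicate 1 was the lowest of its group for 7 of the 10 genes, and control siRNA replicate 1 the highest of its group for 7 of them. Over all tested clusters the shares were 33.8% and 41.8%. No gene of the 10 passed with one or the other of these arrays left out.

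The level of 4 was set beside a gene family silent in most tissues. Of 441 clusters of olfactory receptor genes, 4.54% were above it, against 48.2% of all 67528 transcript clusters. No olfactory receptor cluster was as bright as CAV1, and 1 was as bright as each of FOXA2, MUC5AC, MUC5B and AQP5. As bright as FOXA1 were 2, as NKX2-1 and SFTPB 4 each, as SFTPC 6 and as SLC34A2 22. Probes differ in their response, so this places each signal against that family and does not rank the genes by RNA amount. The fibroblast marker COL1A1 averaged 5.85 over the 6 arrays, brighter than MUC5B at 5.78 and AQP5 at 5.74. It was also brighter than FOXA1 at 5.12, NKX2-1 at 4.96, SFTPB at 4.93 and SFTPC at 4.69. The fibroblast and endothelial markers VWF, PDGFRB and CDH5 averaged 4.55, 4.39 and 4.22, dimmer than SFTPC. In RNA from a whole culture, fewer cells carrying a transcript and less of it per cell cannot be told apart.

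Genes of every epithelial list were found above the level, on at least 3 of the 6 arrays. They were 11 of 14 measured type II genes, 9 of 14 type I genes, 10 of 15 airway secretory and goblet genes and 11 of 14 lung epithelial factors. So were 10 of 12 gastric, gut and liver genes, 8 of 13 basal and ciliated genes and 7 of 8 neuroendocrine genes, so the level of 4 does not assign the cells to 1 lineage. Above the level on all 6 arrays were the lung and endoderm factors GATA6, SOX9, KLF5, ELF3, NFIB and ID2, and the secretory cell factors SPDEF and XBP1. The epithelial factors EHF and GRHL2 and the secretory genes AGR2 and SCGB3A2 were below it on all 6. CPS1, the first enzyme of the urea cycle, and APOH, a plasma protein made by liver, were above it on all 6, as were the gut and endoderm factors GATA4 and HNF4G, while FGB, the fibrinogen beta chain, and CDX2, an intestinal factor, were below it on all 6. The basal keratins KRT5 and KRT14, the ciliated cell factor FOXJ1 and the neuroendocrine genes CHGA, SYP and UCHL1 were above it on all 6 as well, UCHL1 at 8.43 ± 0.04 with CONCR siRNA and 8.52 ± 0.03 with the control siRNA (SD, n = 3 each). From the same lists, the ciliated genes TEKT1, GMNC and SNTN, the basal gene DSG3 and the neuroendocrine gene SYT1 were below it on all 6. DNAI1, a further ciliated gene, was above it on only 1 array. CPS1 averaged 9.98 ± 0.05 with CONCR siRNA and 9.96 ± 0.02 with the control siRNA, and APOH 8.60 ± 0.13 with CONCR siRNA and 8.52 ± 0.03 with the control siRNA (SD, n = 3 each). Of 13 measured markers of leukocytes, fibroblasts and endothelium, 9 were below the level, among them PTPRC, DCN, LUM, PECAM1 and KDR, and COL1A1, PDGFRB, CDH5 and VWF were above it.

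Among 10 tested genes of gastric, gut and liver lineage, 1 rose and none fell, against 0.384% higher and 1.5% lower among all tested clusters. This list too was chosen with earlier results of these data known, so the count says nothing about that lineage as a group. TTR, the thyroid hormone carrier transthyretin of liver and choroid plexus, had signals of 5.30, 5.29 and 5.26 with CONCR siRNA, against 4.87, 4.69 and 4.74 with the control siRNA. The groups were well apart, at 0.52 (SE 0.06, 95% interval 0.37 to 0.67, 1.43-fold higher, limma adjusted p = 0.013). Its call was kept without control siRNA replicate 1 and lost without each of the other 5 arrays, with an adjusted p of at most 0.070. CPS1 was at 0.02 and APOH at 0.08, with limma adjusted p of 0.94 and 0.76. TFF1, a gastric trefoil peptide, was at 0.11, LGALS4 at 0.10 and HNF4G at -0.09, none past the test. The list median was 0.06.

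None of 11 tested lung epithelial transcription factors passed, and 6 had an unadjusted limma p under 0.05, against 12.7% of all tested clusters. The factors were listed with earlier results of these data known, so this count says nothing about lung factors as a group. The 12.7% was also not matched to the factors by signal. SOX9, a factor of distal lung progenitors, had 7.67, 7.58 and 7.64 with CONCR siRNA, against 7.92, 7.94 and 7.84 with the control siRNA. The groups stood apart at -0.28 (SE 0.06, limma adjusted p = 0.068). GRHL1 was at -0.19, ELF3 at -0.14 and GATA6, an endoderm factor that acts with NKX2-1, at 0.16, with limma adjusted p of 0.28, 0.30 and 0.22. Over the 11 factors the median was -0.08.

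The 3 remaining epithelial lists held no call. None of 10 tested airway secretory and goblet genes, 8 basal and ciliated genes or 7 neuroendocrine genes passed, and by unadjusted limma p under 0.05 there were 0 in each. Their medians were 0.02, 0.03 and 0.03. The 4 tested leukocyte, fibroblast and endothelial markers held 0 calls by limma at either threshold, with a median of 0.01. Over all 9 lists 2 of 79 tested genes passed, 2.53% against 1.88% of all tested clusters. The lists were chosen with earlier results of these data known, so the 2 shares are not an independent comparison.

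**Figure D4:**
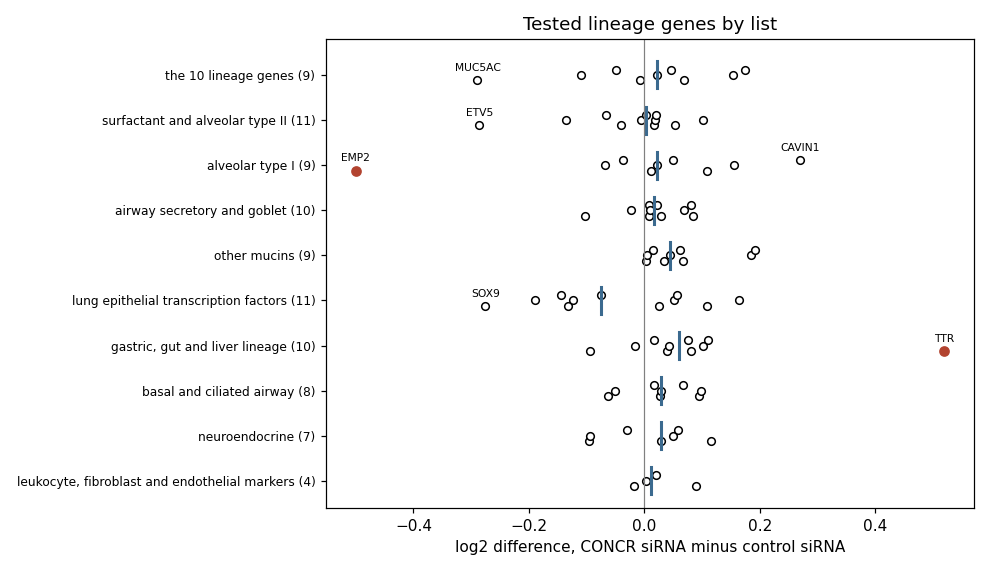
Log2 difference (CONCR siRNA minus control siRNA) of each tested gene by list, with the number tested in brackets; filled points passed limma's adjusted threshold, open points did not, and the bar is the list median. EMP2 at -0.50 and TTR at 0.52 are the 2 filled points, and no list median lies beyond 0.08 from 0.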

How the data were processed

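Total RNA from A549 cells (300 ng per array) was measured on 6 whole-transcript arrays. The authors deposited log2 signals made by RMA (background correction, quantile normalization, median-polish summary) with Affymetrix Power Tools, per the submitters' processing notes. Tool version and genome build are not given in the sources used here. Quantile normalization forces nearly equal distributions, so a change in total RNA per cell could not be seen. Of 70523 probe sets, 67528 were transcript clusters and 2995, taken as controls from their identifiers, were left out.

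Symbols came from the platform annotation, updated through RefSeq (GRCh38.p14), and 23781 clusters had 1 symbol, 1543 several and 42204 none here. The comparison used limma 3.58.1 (lmFit and eBayes, 6.91 degrees of freedom; R 4.3.3), with Benjamini-Hochberg adjustment over the 32540 tested clusters. The fit was tested on simulated data. The genes, the 9 lists and the rule for named genes (every called gene of a list, otherwise the smallest p, and defining genes by level) were chosen with earlier results of these data known. CAVIN3, CAVIN2, SFTPA1, SFTPD, CPS1, APOH, MUC2, MUC6 and FOXA3 were added as relatives of the genes described or for their level. Of 130 listed genes, 12 had no cluster of their own symbol and were not analysed here. Replicate numbers were not taken as pairs: same-numbered arrays had deviations correlated at -0.268, -0.159 and -0.0796. Alternatives were a replicate block, no filter, a filter at 6, renewed quantile normalization, centring on array medians, robust estimation with an intensity trend, weighted arrays, each array left out, and the second cluster.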

Additional observations from a re-analysis of the deposited data

How the results depend on the processing

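None of the 10 genes passed limma's threshold under any alternative run, with the lowest adjusted p at 0.081 (CAV1) and 0.083 (MUC5AC). Of 123 alternative values for the 10 genes, 111 kept their sign and 12 changed it, all of FOXA2, MUC5B or SLC34A2, whose differences were within 0.03 of 0. FOXA1 stayed between 0.14 and 0.22, CAV1 between 0.13 and 0.18 and MUC5AC between -0.36 and -0.22. Under quantile normalization FOXA2 was at 0.0109 and SLC34A2 at -0.00066, and under median centring SLC34A2 was at -0.000397. With 1 array left out, FOXA2 ranged from -0.0411 to 0.0122, MUC5B from -0.0111 to 0.0880 and SLC34A2 from -0.0333 to 0.0506. The number of listed genes called, 2 in the main comparison, was 0 with a replicate block, 4 with a filter at 6, 5 with an intensity trend and robust estimation, and 0 to 2 with 1 array left out. ETV5, SOX9 and CAVIN1 passed under the filter at 6 (adjusted p 0.014, 0.014 and 0.024 by limma) and with the intensity trend (0.040, 0.026 and 0.045). The number of all clusters called, 613, was 51 with the replicate block, 238 without a filter, 1102 with a filter at 6, 965 with the intensity trend and 129 to 411 with 1 array left out. With the replicate block the adjusted p was 0.12 for EMP2 and 0.11 for TTR. The filters change how many clusters are tested and leaving out an array removes a sample. For the other settings the cause was not tested. In the main comparison the smallest difference called among all clusters was 0.27 log2 units.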
